A study of Mus musculus with 12 samples.

Results

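Integrins are the cell surface receptors through which fibroblasts hold on to extracellular matrix. Each is a pair of an α chain and a β chain that assembles inside the cell, and the pair sets which ligand is bound. Laminins are secreted trimers of an α, a β and a γ chain that build basement membranes and are in turn bound by a subset of integrins. The genes described here are all protein-coding mouse genes with symbols of the form Itga, Itgb, Lama, Lamb and Lamc followed by the chain's number or letter. There are 37 of them (18 integrin α, 8 integrin β, 5 laminin α, 3 laminin β and 3 laminin γ chains) among 27179 gene IDs, and all 37 were found in the count tables. Genes with longer names in the same series, such as Itgb2l, Itgbl1 and the Itgb1 binding proteins, were not taken.

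The cells were NIH3T3, an immortalized line of mouse embryonic fibroblasts, which lack RelA, a subunit of NF-κB, and carry a fluorescent form of it (RelA-/- Rela-DsRed). The labels do not say whether the line was 1 clone. The group used received IL-1β at 0.2 ng/mL for 2 h in microfluidic devices and was detached with TrypLE, a trypsin substitute, before lysis. It had 3 libraries of polyA RNA with 17254518, 18091073 and 18578859 counts. The series also lists 3 samples each for LPS (100 ng/mL), PAM (0.2 ng/mL) and media in the same cells, but all 9 of their tables repeat IL-1 replicate 3 exactly. No stimulus could therefore be compared with media, and the values do not show whether IL-1β changed any chain. All errors are the SD over the 3 libraries, which the labels do not tie to separate cultures and which may be technical.

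Of the 37 chains, 19 were detected, meaning that they reached 1 CPM (the gene's count over the library's total, times 1000000) in each of the 3 libraries. The share in all protein-coding genes was 51.1%, or 10724 of 20983, so the members were detected about as often as any coding gene. The 19 were 9 of the 18 integrin α chains, 5 of the 8 integrin β chains and 5 of the 11 laminin chains. Together the 37 genes took 0.199% ± 0.012 (SD, n = 3) of the counts. Levels of different genes are compared below per kb of merged exon, because a longer transcript yields more reads. On that scale the detected chains ran from 0.199 to 254 CPM per kb, with a median of 2.94, and 7 of the 19 lay above the median of detected protein-coding genes, 6.94 CPM per kb.

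**Figure D1:**
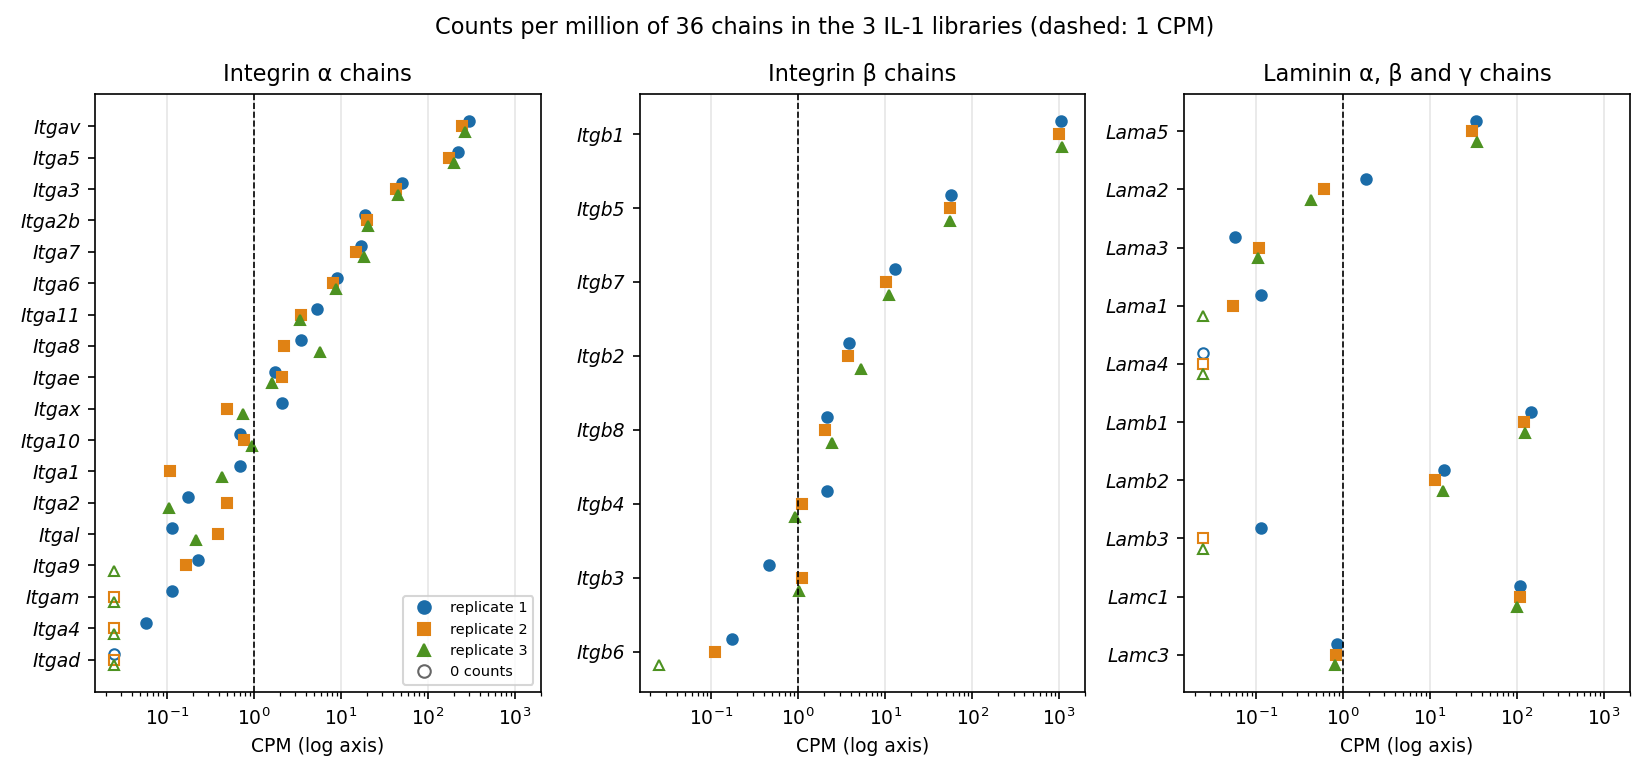
Level of 36 of the chains in the 3 IL-1 libraries, in CPM on a log axis, with 1 symbol per library and open symbols at the left edge where a library had 0 counts. Itgb1 stood at 988 to 1072 CPM, and the chains left of the dashed line in any library were not called detected.

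The windows upstream of the gene starts held more CpG dinucleotides for the detected chains, with no test made. RefSeq promoter entries (GRCm38.p6) were held for 23 of the 37 genes, in 26 windows, of which the 250 bases before the start were searched. The 14 windows of detected chains had a median of 13 CpGs (range 2 to 22), and the 12 of undetected chains 5.5 (0 to 12). Over all protein-coding genes the medians were 16 for detected and 3 for undetected genes. The GC box GGGCGG, on either strand, was in 7 of the 14 and 2 of the 12 windows. Over all protein-coding genes it was in 43.9% of 20439 windows, with 59.6% for detected and 25.2% for undetected genes. The consensus motif of NF-κB, on either strand and without mismatch, was in none of the 14 windows of detected chains and in 1 of the 12 others, a window of Lamb3, and in 7.97% of all (8.96% for detected and 6.79% for undetected genes). The AP-1 motif TGANTCA, on either strand, was in 1 of the 26 windows, that of Itgax, and in 6.22% of all (4.34% for detected and 8.47% for undetected genes). A match or its absence in this window says nothing of binding.

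The 150 bases before the start are shown for the chains that lead or limit the pairs and trimers, chosen after their values were seen, with each CpG in capitals and the sequence 5′ to 3′ on the gene's strand. Itgb1, Itga5, Itgav and Lama5 are detected chains that lead their class or pairs. Itga2b is the detected α chain without a detected partner, and Itga4 and Lama2 are undetected.
Itgb1 promoter, chr8:128685504-128685653, plus strand: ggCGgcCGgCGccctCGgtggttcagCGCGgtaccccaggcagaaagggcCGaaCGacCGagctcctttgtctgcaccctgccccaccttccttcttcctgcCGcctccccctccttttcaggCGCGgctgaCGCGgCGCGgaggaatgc
Itga5 promoter, chr15:103366792-103366941, minus strand: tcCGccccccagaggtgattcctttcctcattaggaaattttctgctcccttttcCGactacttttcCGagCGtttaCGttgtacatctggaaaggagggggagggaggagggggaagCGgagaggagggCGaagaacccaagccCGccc
Itgav promoter, chr2:83724247-83724396, plus strand: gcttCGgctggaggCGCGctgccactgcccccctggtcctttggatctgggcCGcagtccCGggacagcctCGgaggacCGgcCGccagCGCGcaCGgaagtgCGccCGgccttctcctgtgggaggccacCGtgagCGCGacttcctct
Itga2b promoter, chr11:102469884-102470033, minus strand: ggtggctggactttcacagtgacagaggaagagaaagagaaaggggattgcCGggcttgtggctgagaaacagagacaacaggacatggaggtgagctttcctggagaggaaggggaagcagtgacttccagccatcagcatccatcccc
Itga4 promoter, chr2:79255276-79255425, plus strand: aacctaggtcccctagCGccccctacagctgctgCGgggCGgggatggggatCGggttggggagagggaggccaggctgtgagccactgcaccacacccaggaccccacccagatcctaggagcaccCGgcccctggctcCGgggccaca
Lama5 promoter, chr2:180225860-180226009, minus strand: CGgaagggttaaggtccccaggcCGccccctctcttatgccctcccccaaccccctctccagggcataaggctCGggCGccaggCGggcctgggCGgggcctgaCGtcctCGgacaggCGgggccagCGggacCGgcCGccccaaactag
Lama2 promoter, chr10:27616943-27617092, minus strand: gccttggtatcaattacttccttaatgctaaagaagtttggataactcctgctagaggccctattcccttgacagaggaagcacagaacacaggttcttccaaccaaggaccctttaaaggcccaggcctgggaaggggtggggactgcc
The stretch held 16 CpGs for Itgb1 and for Itgav, 12 for Lama5, 8 for Itga5, 6 for Itga4, 1 for Itga2b and 0 for Lama2. Itga2b, at 19.9 CPM, was thus poorer in CpG than the undetected Itga4. Its whole window held 2, the fewest among the windows of detected chains, while Lamb2 had 3, and Itgb7 and 1 of the 2 windows of Itga3 had 5. The starts used for Itgav, Lama5 and Lama2 lie inside the RefSeq span of the gene, so they need not be its outermost start.

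Among the β chains, Itgb1 exceeded the sum of all the others in every library. Itgb1, the shared partner of most matrix-binding α chains (chromosome 8, 128685654 to 128733579, GRCm38), had 1053, 988 and 1072 CPM in replicates 1 to 3. Its mean of 254 ± 10.8 CPM per kb was 92.0% ± 0.19 (SD, n = 3) of the summed level of the 8 β chains, and it stood at the 99.2 percentile of protein-coding genes per kb. Itgb5, which pairs with αv alone, had 57.7, 56.0 and 56.4 CPM, or 16.0 ± 0.245 CPM per kb. The 3 values of Itgb5 were closer together than those of any other detected chain, with a coefficient of variation of 1.54%, below the 3.13% expected from counting error. Per kb, Itgb1 was 15.9 ± 0.59 times Itgb5 (SD, n = 3).

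The next β chains are known mainly from white blood cells. Itgb7, a partner of α4 and αE, had 13.1, 10.1 and 11.03 CPM, and Itgb2, the common chain of the leukocyte integrins, had 3.83, 3.76 and 5.22 CPM. Itgb8, a partner of αv that binds latent TGF-β, was lowest of the detected chains per kb at 0.199 ± 0.018, on 37, 37 and 45 counts. These 5 β chains did not overlap with their neighbours in the order Itgb1, Itgb5, Itgb7, Itgb2 and Itgb8. Below them, Itgb4, the hemidesmosome chain of epithelia, had 2.14, 1.11 and 0.915 CPM and so missed the limit in replicate 3. Itgb3, the β chain of the vitronectin and fibrinogen receptors, had 0.464, 1.11 and 1.02 CPM and missed it in replicate 1. Itgb6, an epithelial partner of αv, had 3, 2 and 0 counts. Per kb, Itgb8, Itgb4 and Itgb3 overlapped.

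The α chains were led by the fibronectin and RGD receptors. Itga5, the α chain of the fibronectin receptor (chromosome 15, 103344286 to 103366791), had 224, 175 and 201 CPM. Itgav, the chain shared by 5 RGD-binding pairs (chromosome 2, 83722303 to 83806917), had 301, 245 and 266 CPM. Itgav was higher in CPM, but its exons are longer. Per kb of merged exon Itga5 came first, at 40.5 ± 4.97 against 25.2 ± 2.64, and Itgav was 0.623 ± 0.018 of Itga5 (SD, n = 3). Per kb of the longest transcript they were closer, at 45.3 ± 5.55 and 38.4 ± 4.02, so the ratio depends on the length used. Together the 2 chains are most of the α level, with 48.9% ± 0.90 of the summed CPM per kb for Itga5 and 30.5% ± 0.45 for Itgav. Exons of Itgav share 634 bases, 5.90% of their length, with the opposite-strand transcript Gm13684, and the strand setting of the counting is not given in the sources used here.

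The laminin-binding α chains followed. Itga3 (chromosome 11, 95044475 to 95076844) had 50.5, 42.9 and 45.4 CPM, Itga7 (chromosome 10, 128933421 to 128958286) 17.3, 15.2 and 18.6 CPM, and Itga6 8.98, 8.07 and 8.88 CPM. All are receptors for laminin, Itga7 being the main laminin receptor of muscle. Per kb of merged exon, Itga3 was 3.86 ± 0.36 times Itga7, and Itga7 was 2.20 ± 0.13 times Itga6 (SD, n = 3). Per kb of the longest transcript, Itga3 was at 9.52 ± 0.79, Itga7 at 4.24 ± 0.43 and Itga6 at 2.01 ± 0.12. The ratio of Itga3 to Itga7 thus depends on the length used. The 3 chains did not overlap with each other.

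Collagen-binding α chains were low. Itga11, a fibroblast receptor for fibrillar collagen (chromosome 9, 62677855 to 62783979), was the only detected chain of the 4, with 5.33, 3.54 and 3.39 CPM. Itga10, a collagen receptor of cartilage, had 12, 14 and 18 counts, or 0.813 ± 0.14 CPM. Of its exon bases, 1739 (33.5%) are shared with the gene model Gm42957 on the same strand. Itga1 had 12, 2 and 8 counts and Itga2 had 3, 9 and 2. These genes lie 26.0 kb apart on chromosome 13, and neither reached 1 CPM in any library. Itga8, an RGD receptor of mesenchyme, had 3.54, 2.21 and 5.81 CPM and the widest spread of the detected chains, with a coefficient of variation of 47.3%, on 61, 40 and 108 counts. Of its exon bases, 5.05% are shared with E030013I19Rik on the opposite strand. Per kb of merged exon, Itga6, Itga11, Itga8 and Itgae each overlapped with the next in that order. Per kb of the longest transcript, Itga6 was at 2.01 ± 0.12 and Itga11 at 0.822 ± 0.22, and these error ranges did not overlap.

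The α4 and α9 chains, which bind VCAM-1, fibronectin splice forms and other ligands, were close to absent from the counts. Itga4 (chromosome 2, 79255426 to 79333114) had 1 count in replicate 1 and 0 in the others, and Itga9 had 4, 3 and 0. By counting error alone, a library without a count could still hold 3, which is 0.161 to 0.174 CPM across the libraries. Vcam1, the endothelial and stromal ligand of α4, was at 1939 ± 102 CPM in the same cells.

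Itga2b and Itgae, known mainly from other cell types, were both detected. Itga2b, the αIIb chain of platelets (chromosome 11, 102453297 to 102469883), had 19.3, 19.9 and 20.6 CPM, a coefficient of variation of 3.17% against 5.28% from counting error. At 3.65 ± 0.12 CPM per kb it was below Itga3 and above Itga7 in every library, and its promoter stretch is the one above with a single CpG. Of 8 platelet markers, 1 was detected, Ppbp at 5.60 ± 1.91 CPM, while Pf4, Gp9, Gp1ba and Gp6 had no count, and the sum of the 8 was at most 7.79 CPM. The part of platelet-lineage cells in the Itga2b level was not tested, and their defining marker Pf4 was at 0. Itgae, the α chain of lymphocytes within epithelia, had 1.74, 2.10 and 1.61 CPM.

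Leukocyte α chains of the β2 family were mostly at the floor. Itgad was at 0 in every library (upper limit 0.0556 CPM for the 3 libraries jointly), Itgam had 2, 0 and 0 counts and Itgal 2, 7 and 4. Of the Itgam exons, 68.7% are shared with the gene model Gm49368 on the same strand, and how reads on shared exons were counted is not given in the sources used here. Itgax had 37, 9 and 14 counts, or 2.14, 0.497 and 0.754 CPM, so that replicate 1 alone was above 1 CPM. Itgam, Itgax and Itgad lie side by side on chromosome 7, with gaps of 11034 and 23275 bases. Among 11 leukocyte markers, 4 were detected, namely Lyz2 at 9.69 ± 2.70, Cd74 at 9.50 ± 1.70, Cd68 at 2.05 ± 0.945 and Csf1r at 1.84 ± 0.379 CPM. The summed level of the 11 was 24.5, 27.6 and 18.2 CPM in replicates 1 to 3, Ptprc had 3, 0 and 6 counts, and Cd3e, Cd3g and Spi1 had none. In bulk RNA, few cells of another type and little RNA per cell cannot be told apart, and the part of such cells in the levels of Itgb2, Itgb7, Itgae and Itgax was not tested.

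**Figure D2:**
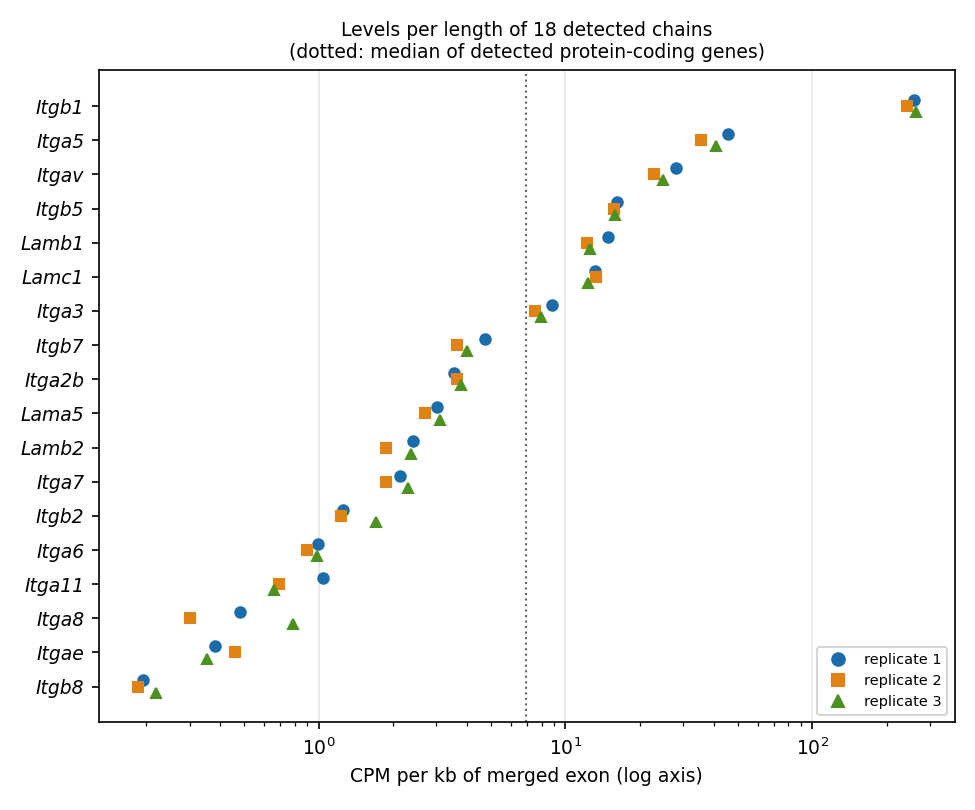
Levels of 18 detected chains in CPM per kb of merged exon (log axis), ordered by their mean, with 1 symbol per library. The chains span from Itgb8 at 0.199 to Itgb1 at 254 CPM per kb, and the dotted line marks 6.94, the median of detected protein-coding genes.

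Laminin chains gave a short list. Lamb1 (chromosome 12, 31265146 to 31329644) had 148, 121.1 and 124 CPM, and Lamc1 (chromosome 1, 153218922 to 153332786) 109, 110 and 102 CPM. These are the β and γ chains of most laminins. Per kb of merged exon they overlapped, at 13.2 ± 1.46 and 12.9 ± 0.502, with a ratio of 1.02 ± 0.10 (SD, n = 3). Per kb of the longest transcript Lamb1 was at 22.7 ± 2.50 and Lamc1 at 14.0 ± 0.545, so their ratio depends on the length used. Lama5, the α chain of the laminins found in most adult basement membranes (chromosome 2, 180176373 to 180225904), had 34.3, 30.8 and 35.4 CPM, or 2.94 ± 0.210 CPM per kb. Lama5 alone made up 97.6% ± 1.6 (SD, n = 3) of the summed laminin α level. The summed β chains were 5.12 ± 0.38 times the summed α chains per kb of merged exon, and the summed γ chains 4.70 ± 0.44 times. These ratios also depend on the length used. Lower than Lamb1, Lamb2 had 14.6, 11.4 and 14.4 CPM, and Lamb1 held 85.6% ± 1.3 of the summed β level per kb.

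The other laminin α chains were low in all libraries. Lama4, known from vessels and mesenchyme (chromosome 10, 38965515 to 39110188), was at 0 throughout, with the same upper limit as Itgad. Lama1, an embryonic chain, had 2, 1 and 0 counts, and Lama3, an epithelial chain, 1, 2 and 2. Lama2, the muscle and nerve chain, had 32, 11 and 8 counts, or 1.85, 0.608 and 0.431 CPM, so that the count in replicate 1 exceeded the sum of the others. Of the skeletal and smooth muscle markers, Myod1 had 1, 0 and 0 counts and Myog none, while Acta2, Tagln, Smtn and Des, which fibroblasts can also express, were detected, with Acta2 at 414 ± 21.7 CPM and a summed level of 506 to 537 CPM for the 10 markers. Among 6 Schwann cell markers, 1 was detected, Mbp at 1.42 CPM, and Sox10 had 2, 0 and 2 counts; the part of such cells in the Lama2 value was not tested.

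Lamc3 had 15 counts in each library, or 0.835 ± 0.031 CPM, just under the limit, and Lamb3, an epithelial β chain, had 2, 0 and 0 counts. Of 10 epithelial markers none was detected, the sum ran from 0.663 to 1.28 CPM, Krt5, Krt18 and Cldn4 had no count, and Epcam had 0, 1 and 0 counts.

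The pairs that these levels would permit were read from the 24 known integrin heterodimers. A pair was called permitted when both chains were detected, and its level was taken as that of its lower chain per kb. A chain shared by several pairs was counted in full for each, so the levels of such pairs cannot be summed. Transcripts do not show that a pair was assembled or reached the surface, and the counts do not separate splice forms such as those of the α6, α7 and β1 tails. On this reading 10 of the 24 pairs were permitted, namely 5 of 8 RGD-binding, 3 of 4 laminin-binding, 1 of 4 collagen-binding and 1 of 5 leukocyte pairs, and none of the 3 with α4 or α9 in the matrix and VCAM-1 class.

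The highest was α5β1 at 40.5 ± 4.97 CPM per kb, followed by αvβ1 at 25.2 ± 2.64, αvβ5 at 16.0 ± 0.245 and α3β1 at 8.10 ± 0.673. These 4 pairs did not overlap with each other per kb of merged exon. Per kb of the longest transcript, α5β1 was at 45.3 ± 5.55 and αvβ1 at 38.4 ± 4.02, and these error ranges overlapped. Then came α7β1 at 2.11 ± 0.21, α6β1 at 0.958 ± 0.055, α11β1 at 0.797 ± 0.21, α8β1 at 0.523 ± 0.25, αEβ7 at 0.397 ± 0.055 and αvβ8 at 0.199 ± 0.018. In the 7 pairs with β1 the α chain was the lower in every library. The summed level of the 12 α chains that can pair with β1, taking all of Itgav, was exceeded by Itgb1 3.26 ± 0.26 times (SD, n = 3). For αv the β chain is the choice. Of the summed level of its 5 partners Itgb1 held 94.0% ± 0.21, Itgb5 5.90% ± 0.21 and Itgb8 0.0736% ± 0.0043. All of Itgb1 was counted here, although other α chains share it while Itgb5 pairs with αv alone. These shares are therefore not those of the αv pairs. In αEβ7, Itgb7 was 10.6 ± 2.33 times its α partner.

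**Figure D3:**
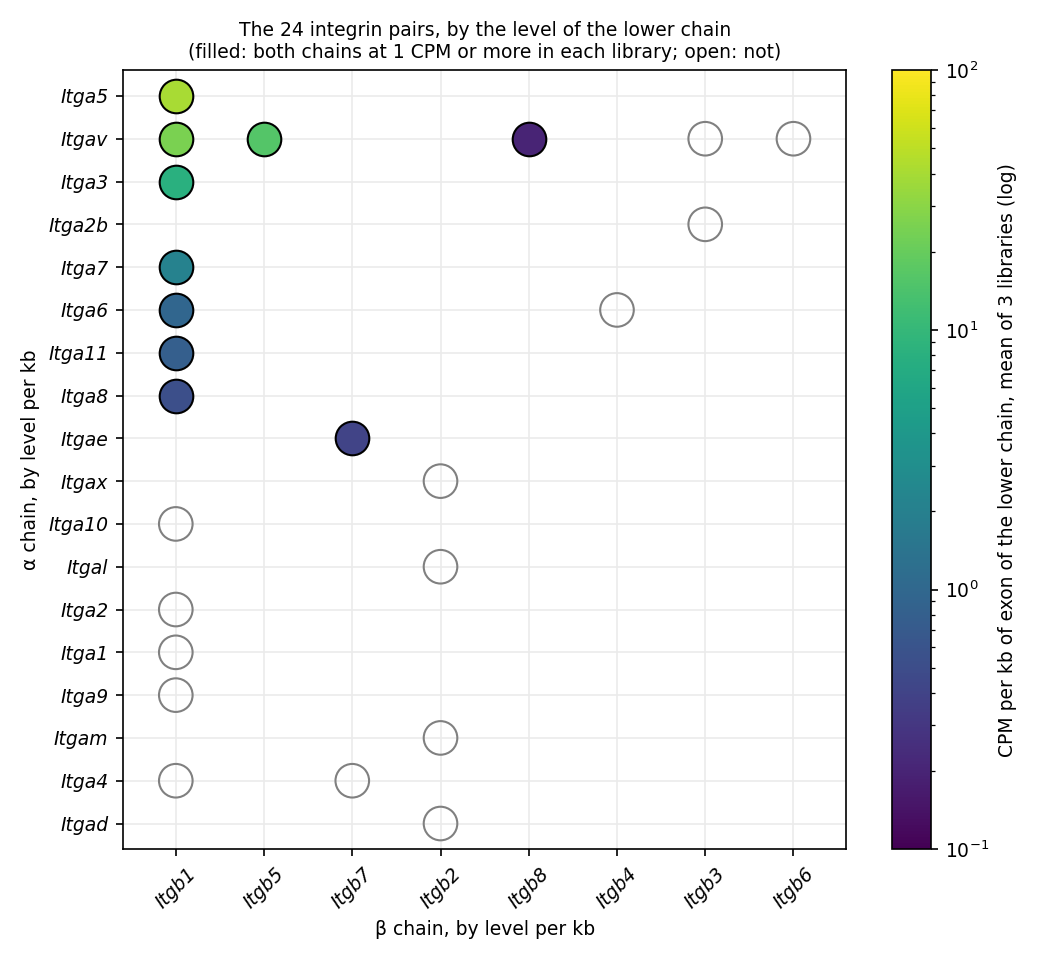
The 24 known integrin pairs, with α chains in rows and β chains in columns, each ordered by level. Filled circles are the 10 pairs with both chains at 1 CPM or more in each library, coloured by the CPM per kb of the lower chain (log scale, 0.199 for αvβ8 to 40.5 for α5β1), and open circles are the 14 others.

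Each of the 14 pairs that were not permitted lacked 1 chain. In 5 the chain at hand was Itgb1 and an α chain was below the limit (α1, α2, α10, α4 and α9), and α4β7 also lacked Itga4. In 4 it was Itgb2, detected itself but with none of αL, αM, αX and αD. The vitronectin receptor αvβ3 and the platelet receptor αIIbβ3 both lacked Itgb3, αvβ6 lacked Itgb6, and per kb Itga2b exceeded Itgb3 by 45.04, 19.5 and 21.8 times in replicates 1 to 3. Both pairs became permitted without replicate 1, in which Itgb3 had 8 counts against 20 and 19. Itga6 reached the limit without Itgb4, and α6β4 became permitted without replicate 3. Itgb3 and Itgb4 each missed the limit in 1 library, whereas Itga10, the chain that α10β1 lacked, was below it in all 3. With a limit of 1 CPM per kb of merged exon in place of 1 CPM, 5 pairs in place of 10 were permitted. The pairs lost were α6β1, α11β1, α8β1, αvβ8 and αEβ7. Per kb of the longest transcript Itga6 was at 2.01 ± 0.12, above that limit, so the loss of α6β1 depends on the length used.

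Among 14 laminin trimers, 2 were permitted, α5β1γ1 and α5β2γ1. In α5β1γ1 the lowest chain was Lama5 at 2.94 ± 0.210 CPM per kb, and in α5β2γ1 it was Lamb2 at 2.22 ± 0.29. Lama5 was 1.34 ± 0.093 times Lamb2 (SD, n = 3), higher in each library, and their 3 values did not overlap. Of the 12 others, 11 lacked their α chain, and α5β2γ3 lacked only Lamc3, which was detected at a limit of 0.5 CPM. Of the laminin-binding integrins, α3β1, α6β1 and α7β1 were among the permitted pairs and α6β4 was not.

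The genes that work beside the chains were counted by the same limit. Of 30 adaptors, kinases and regulators at the adhesion plaque, which links β tails to actin, 26 were detected, against 51.1% of protein-coding genes. The highest were Zyx at 495 ± 83.5, Flna at 354 ± 9.68, Vcl at 303 ± 11.9 and Lims1 at 282 ± 4.22 CPM. Fermt2, the kindlin of adherent cells, was at 262 ± 2.23 CPM, while Fermt3, the kindlin of blood cells, had 26, 5 and 27 counts and Fermt1, the epithelial form, 1, 0 and 1. Tln1, the talin that activates β chains, was at 82.0 ± 6.21 CPM and Tln2 at 13.2 ± 1.05. Parva was at 206 ± 9.94 CPM, Parvb at 12.3 ± 1.44, and Parvg, of blood cells, had 10, 4 and 12 counts.

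Transcripts of most listed ligands were detected. Of 26 matrix and cell surface ligands other than laminins, 20 were detected, against 51.1% of protein-coding genes. They were led by Spp1 (osteopontin, an RGD protein) at 9248 ± 497, Vcam1, Col1a2 at 1154 ± 9.66 and Fn1 (fibronectin, the ligand of α5β1) at 1122 ± 76.0 CPM. Vtn, which encodes vitronectin and is made by the liver, had 1, 2 and 1 counts, and Npnt, a ligand of α8β1, 5, 8 and 7. Madcam1 and Cdh1, the ligands of α4β7 and αEβ7, were not detected, with 13, 11 and 8 counts of Madcam1 and 6, 2 and 1 of Cdh1. Col3a1 was at 161 ± 6.11 CPM and Col1a1 at 714 ± 78.3 CPM, beside Itga11 as the detected chain of a collagen receptor.

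Basement membrane partners were detected in 9 of 16 cases (56.25%), near the 51.1% of all protein-coding genes. Sparc, which binds collagen, was at 1484 ± 25.3 CPM, and Nid1, the nidogen that joins Lamc1 to collagen IV, at 776 ± 84.5 CPM. Col4a1 was at 164 ± 13.6 and Col4a2 at 89.3 ± 1.34 CPM, while Col4a3, Col4a4 and Col4a6 were not detected. A further list held laminin receptors outside the integrins, proteins associated with them such as Sgce, and enzymes that glycosylate such receptors. Of its 19 genes, 14 were detected, against the same 51.1%. They were led by Sdc4 at 931 ± 117, Sdc1 at 106 ± 5.30, Rpsa at 96.9 ± 6.18 and Sgce at 94.1 ± 6.82 CPM. Dag1, which encodes dystroglycan, was at 71.8 ± 7.85 CPM, and Bcam, a receptor for α5 laminins, had no count. Reads of Rpsa may be shared with its many processed pseudogenes, so its value is uncertain. All 9 tetraspanins and other surface partners were detected, again against 51.1%. Slc3a2 was at 1065 ± 32.7, Bsg at 866 ± 49.4, Cd63 at 728 ± 46.96 and Cd81 at 662 ± 53.8 CPM. Cd151, the tetraspanin that binds laminin-binding integrins, was at 81.6 ± 7.54 CPM.

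The label of a fibroblast line was set against its markers. Of 14 fibroblast markers, 12 were detected, with Vim at 3162 ± 76.6, Sparc, S100a4 at 1388 ± 154 and Col1a2. Lum and Fap were not detected, and Fap had no count. Of 8 endothelial markers, 1 was detected, Egfl7 at 13.8 ± 0.649 CPM, the summed level was 13.7 to 15.4 CPM, and Pecam1 was at 0.485 ± 0.14 CPM.

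The spread among the 3 libraries was wider than counting error for some chains and not for others. The coefficient of variation of Itga5 was 12.3% against 1.67% from counting error and that of Itgav 10.5% against 1.43%. Itgb8 had 8.86% against 15.9%. Of the 19 detected chains, 15 were lowest in replicate 2, against 41.9% of all 11224 detected genes, and 10 were highest in replicate 1, against 45.7%. With TMM factors, 13 of the 19 were lowest in replicate 2, against 35.1% of all genes. The difference was small for most chains. On log2(CPM + 0.5), the median chain differed from the mean of the other libraries by 0.06 in replicate 1, -0.18 in replicate 2 and 0.04 in replicate 3, and the medians of all detected genes were 0.05, -0.04 and 0.00. Itga11 in replicate 1 (0.56), Itga8 in replicates 2 (-0.90) and 3 (0.93), and Itgb2 (0.41) and Itga11 (-0.32) in replicate 3 lay outside the 5 to 95 percentile range of all genes.

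**Figure D4:**
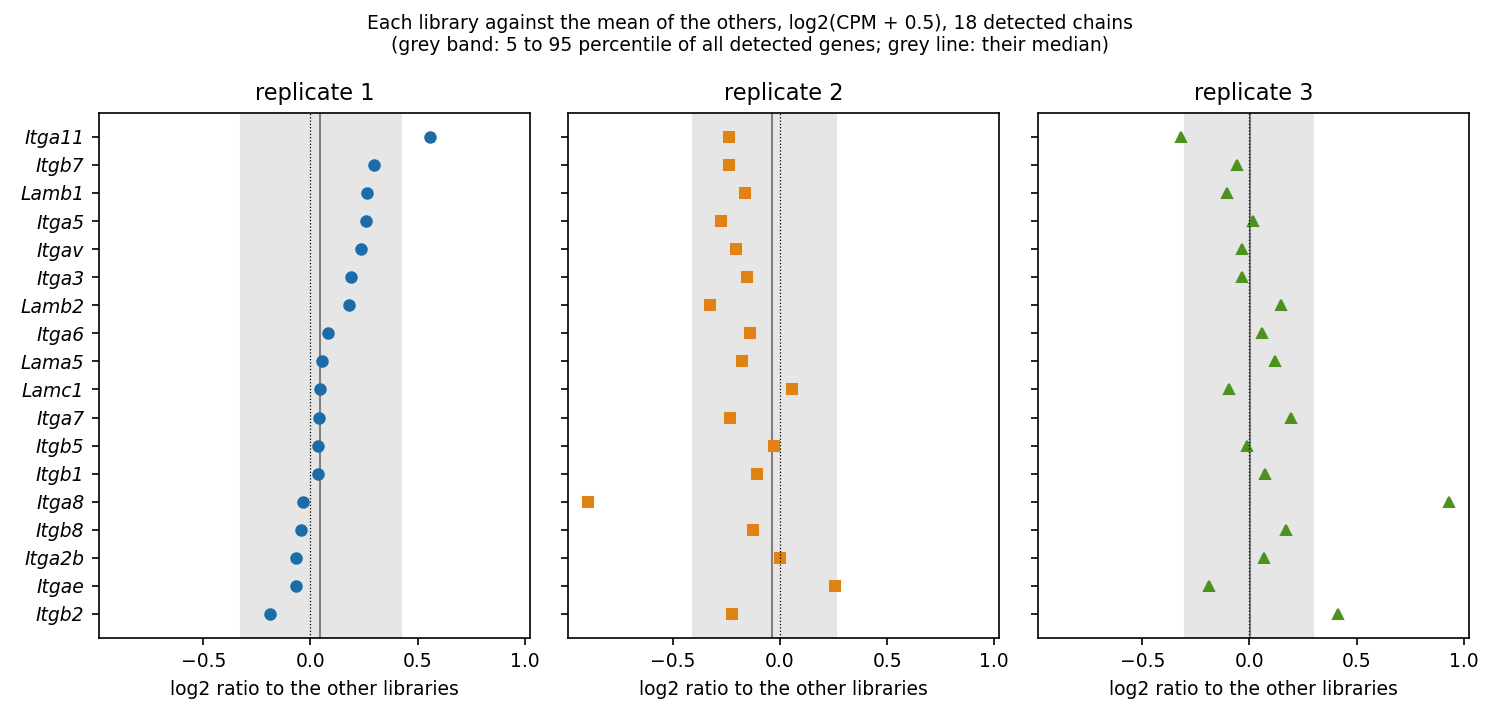
Log2 difference of 1 library from the mean of the other libraries for 18 detected chains, 1 panel per library, ordered by their ratio in replicate 1, with the 5 to 95 percentile range of all 11224 detected genes as a grey band and their median as a grey line. In replicate 2, 16 of the 18 chains lie below 0, with Itga8 farthest at -0.90.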

How the data were processed

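The tables deposited by the authors hold raw counts per Entrez gene ID, with no normalization. CASAVA, STAR and featureCounts with build mm10 were used, per the submitters' processing notes; the sources used here give no versions, gene annotation or strand setting, nor how reads on shared exons were treated. Per the labels' protocols, lysates were reverse transcribed without RNA extraction and amplified for 10 cycles, with no molecular identifiers mentioned, so intervals and floors cover counting error only.

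Of the 12 tables, 9 (LPS, PAM, media) repeat IL-1 replicate 3 and were left out. No test between groups was made. Symbols and positions came from RefSeq (GRCm38.p6) by Entrez ID, matched for 25275 of 27179 IDs. CPM used each library's total, and CPM per kb the merged exons of GENCODE M21, known for all 37 genes. A floor of 3 counts stands for a count of 0. TMM and relative log expression factors were from edgeR 4.0.16 in R 4.3.3, with Python 3.11.15, numpy 2.4.6 and pandas 2.3.3 for the rest. The code was tested on simulated data. The 24 integrin pairs and 14 laminin trimers are textbook lists, and other laminin trimers were not considered. All members but 1 are named, and of each other list the 4 genes with the highest mean CPM and the defining marker of each other cell type. Other genes of those lists were named after their values were seen, and 1 member and some listed genes are not reported here. The members and lists were chosen with earlier results of these data known. Protein sequences planned for the text were not used here.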

Additional observations from a re-analysis of the deposited data

How the results depend on the processing

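No paired analysis was possible because the other 3 groups hold copied tables. TMM and relative log expression factors left the counts of detected chains (19), permitted integrin pairs (10) and permitted laminin trimers (2) as they were. Limits of 0.5 and 2 CPM gave 22 and 18 chains, 12 and 9 pairs, and 3 and 2 trimers. A limit of 1 CPM per kb of merged exon gave 13 chains, 5 pairs and 2 trimers. It was stricter for every chain, since all have more than 1 kb of merged exon, and most so for long ones. Leaving out 1 library gave 19 to 20 chains and 10 to 12 pairs, and 2 trimers each time. Of the 5 lists of adaptors, ligands and partners, 78 genes were detected, and 78 to 80 with TMM factors, limits of 0.5 and 2 CPM or 1 library left out. The limit per kb was not applied to these lists. The median log2 ratio of replicate 1 to the others, 0.06, ranged from 0.01 with relative log expression factors to 0.18 without replicate 3. The alternatives for the chains lowest in replicate 2 were chosen after seeing the data, and both scaling factors gave 13 in place of 15. With the longest transcript in place of merged exons, no chain moved by more than 2 ranks. The lowest chain of all 12 permitted pairs and trimers was the same. Levels per kb rose by up to 2.09 times, but unevenly, with no rise for Lama5. The level of 12 of the 37 chains moved beyond its SD, among them Itgav, Lamb1 and Lamc1. Ratios and overlap between chains thus changed for some, as for Itga5 with Itgav and Lamb1 with Lamc1. Depth limits chains near 1 CPM, which rest on about 20 counts a library.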
